A study of Solanum lycopersicum with 6 samples.

Results

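The mature and star strands of miRNA loci were compared within each of 6 small RNA libraries from tomato pedicels, and the ratio of the strands was then compared between the lines. The members are the loci for which a list gives both a mature and a star row with the evidence word Known, added up by family. The lists hold 413 loci of 39 families over the 6 libraries, of which 312 are Known. The 19 families with at least 1 Known locus in every library were kept, and they account for 247 of these Known loci, or 39 to 43 in a library.

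The tested line was *hws-1*, a weak allele of *HAWAIIAN SKIRT* (*HWS*), which encodes an F-box protein, and it was isolated from a mutagenized population of the "Micro-Tom" cultivar and used after backcrossing. The other line was WT "Micro-Tom". In both lines, each of the 3 biological replicates was made of 5 pooled pedicel segments taken between the abscission zone and the calyx 10 days after anthesis. The study asked which miRNAs accumulate in *hws-1* pedicels. The lists hold miRNAs only, so that neither *HWS* transcripts nor marker genes of pedicel tissues could be checked.

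A plant miRNA is cut by DCL1 from a hairpin precursor as a duplex of a 5p and a 3p strand. One strand, the mature or guide strand, is loaded into ARGONAUTE, while its partner, the star strand, is usually discarded and degraded. In some families both strands are stable, and the ratio of star to mature then depends on how strands are selected, loaded and turned over.

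The values are those the authors call TPM, which are reads scaled to 1000000 reads of the library. The smallest regular step between values, which is what 1 read is worth, was 5.55, 6.36 and 8.76 TPM in *hws-1* replicates 1, 2 and 3, and 3.19, 3.88 and 3.57 TPM in WT replicates 1, 2 and 3. Every *hws-1* library was therefore shallower than every WT library, and depth and line cannot be told apart. The scaling itself cancels from a ratio of strands in the same library, but the smaller number of reads behind a star row in *hws-1* does not. Where star values are given below in reads, they are TPM divided by this step, and they need not be whole because reads with several positions were shared out. Lists came without sequences, and none are printed.

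The words mature and star were not a pure ranking by abundance. The mature row held more TPM than the star row in 285 of the 312 Known listings (91.3%), and the star row was higher in 27. These 27 belong to miR166 (11 of 54 listings), miR156 (4 of 12), miR168 (4 of 11), miR396 (4 of 24), miR395 (3 of 8) and miR172 (1 of 15). The excess of mature over star is given as a description only, since the words may have been set partly from the reads. Nor was it checked for every family which strand acts on targets. The evidence word also moved with the star strand. Of the 91 loci called Probable, 79 had a star row at 0, against 1 of the 312 Known loci, so that choosing Known loci leaves out most loci without star reads.

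Families differed widely in how much of their signal was star. The star share, which is star TPM as a percentage of mature plus star TPM, had means over the 6 libraries from 1.43% in miR9471 to 41.6% in miR168. The SD of the family means of log2(star/mature), with 1 TPM added to each strand, was 2.06, whereas the SD between libraries of a line had a median of 0.49 over the 19 families and ranged from 0.11 to 0.96. The order of the families was much the same from library to library, with Spearman's rho between 0.86 and 0.94 for pairs of libraries (19 families, which share reads and processing, so that no p is given).

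**Figure D1:**
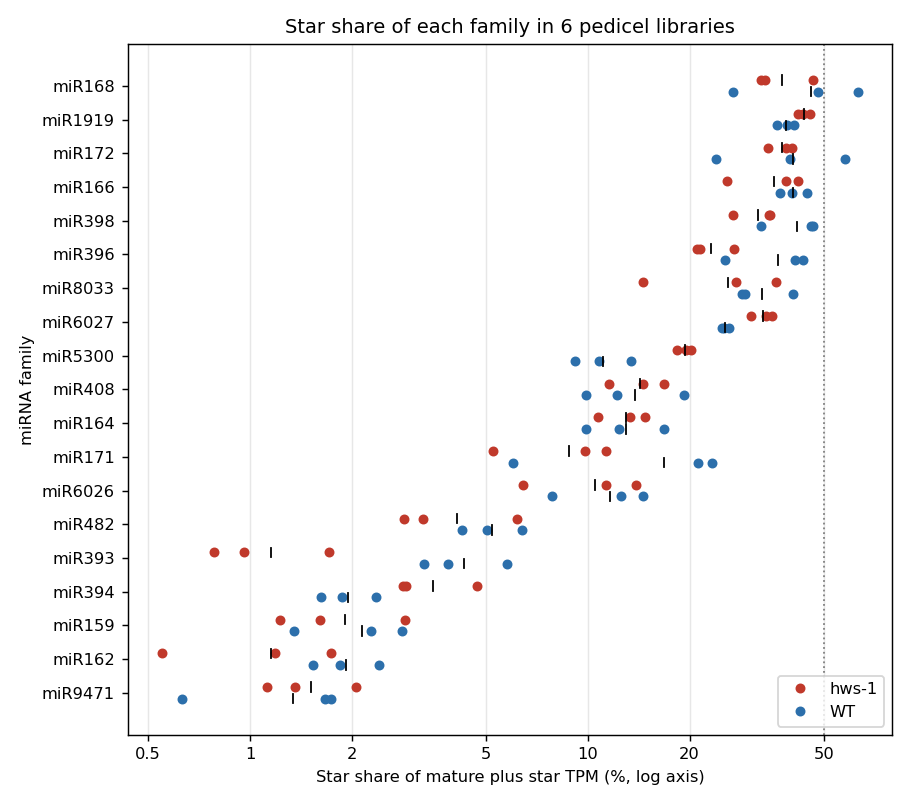
Star share of mature plus star TPM (%, log axis) for the 19 families, ordered by their mean over the 6 libraries. Each point is a library (red for *hws-1*, blue for WT), short black lines are means of 3, and the dotted line marks 50%, which only miR168 in WT replicate 2 and miR172 in WT replicate 3 exceed. Shares are from Known loci. With any evidence word, miR172 in WT replicate 3 has 42.4%.

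Star TPM followed mature TPM only loosely across families. Pearson's r between log2 star and log2 mature TPM ranged from 0.60 to 0.71 over the 6 libraries (19 families each). Mature sums spanned 197-fold, 438-fold and 243-fold in *hws-1* replicates 1, 2 and 3, against 158-fold, 391-fold and 521-fold in WT. Star sums spanned 983-fold, 1956-fold and 1459-fold in *hws-1*, against 1002-fold, 706-fold and 1485-fold in WT, which is wider than the mature span in every library. Among the most abundant families, miR9471 had the lowest mean star share and miR166 one of the highest.

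Low star shares were found in families of very different targets. miR9471, with the highest mean mature TPM of the 19 families (25383 TPM), had star shares of 1.13%, 1.36% and 2.06% in *hws-1* replicates 1, 2 and 3, against 0.63%, 1.67% and 1.73% in WT. miR162, which targets *DCL1* itself, had 0.55%, 1.18% and 1.74% in *hws-1*, against 1.54%, 2.40% and 1.84% in WT. miR159, which targets GAMYB transcription factors, ranged from 1.22% to 2.88% over the 6 libraries. The libraries of the lines overlapped in these 3 families. miR394 and miR393, the families that target F-box genes, also lay low, with means of 2.72% and 2.73%. The sum for miR394 leaves out miR394a, which is called Probable in every library. With any evidence word, miR394 had 1.47%, 1.52% and 2.46% in *hws-1*, against 0.97%, 1.22% and 0.85% in WT, close to miR9471.

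High star shares were found in miR168, miR1919, miR172 and miR166. miR168, which targets *AGO1*, ranged from 26.9% to 62.9%. miR172, which targets AP2-like transcription factors, had 34.2%, 38.6% and 40.1% in *hws-1*, against 39.7%, 24.0% and 57.7% in WT. These sums leave out miR172 loci called Probable. With any evidence word, miR172 had 30.4%, 26.7% and 40.1% in *hws-1*, against 30.1%, 18.5% and 42.4% in WT. miR166, which targets the HD-ZIP III transcription factors of vascular patterning, had 38.6%, 25.8% and 41.9% in *hws-1*, against 40.2%, 37.1% and 44.5% in WT. In each of these 3 families the lines overlapped. The other families lay between, and their mean star shares were 36.7% for miR398, 29.9% for miR396, 29.4% for miR8033, 29.3% for miR6027, 15.2% for miR5300, 14.05% for miR408, 13.0% for miR164, 12.8% for miR171, 11.1% for miR6026 and 4.66% for miR482.

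Star shares ranged widely whichever arm the mature strand came from. The mature strand was 3p in every Known listing of 10 families, with mean star shares from 1.43% to 39.1% (median 7.87%). It was 5p in every listing of miR164, miR394, miR5300 and miR6027, with means from 2.72% to 29.3% (median 14.1%). In the remaining 5 families, miR168, miR171, miR396, miR398 and miR1919, the mature strand was 5p in some listings and 3p in others, and 4 of these 5 had means above 29%.

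Within miR166, the 10 loci differed less in mature than in star values. Reads with several positions were shared out, and some mature rows were equal in a library. For example, miR166d and miR166f both had 2212.6 TPM in WT replicate 1. The closeness of mature rows, and star shares by locus, therefore cannot be read as the output of single loci. In every library 4 loci had a star share above 30% and 5 a share below 10%, counting loci of any evidence word. miR166b stood highest in both strands, with 5290, 9168 and 8281 TPM of 3p (mature) in *hws-1*, against 8535, 6466 and 7869 TPM in WT. Its 5p (star) row had 5506, 5167 and 10983 TPM in *hws-1*, against 10814, 6938 and 11570 TPM in WT, and was above the 3p row in 5 of the 6 libraries.

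The other miR166 loci fell into groups by their star row. miR166a, miR166h and miR166j had star shares between 32.7% and 57.2%, with nearly the same star values in a library. miR166e had 16.8% to 23.4% and miR166c 2.72% to 9.0%. miR166d, miR166f, miR166g and miR166i stayed at or below 3.28%, and the star rows of miR166f and miR166g were at 0 in some libraries while their mature rows held between 1382 and 2563 TPM. Mature rows of all loci but miR166b ranged from 1371 to 2768 TPM. The family sum of star TPM thus came mainly from miR166a, miR166b, miR166h and miR166j.

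**Figure D2:**
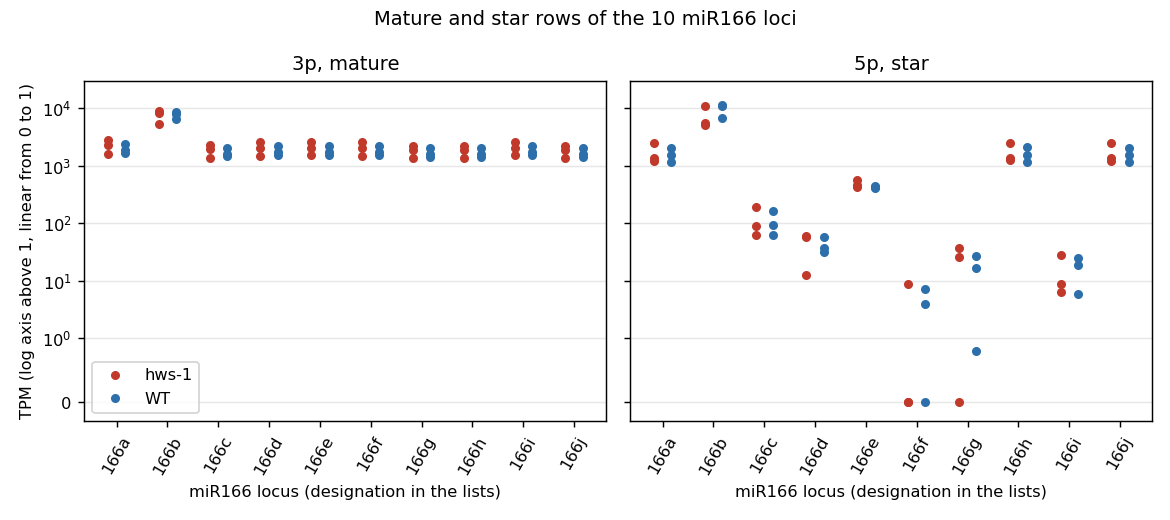
TPM of the mature (3p, left) and star (5p, right) rows of the 10 miR166 loci, for *hws-1* (red) and WT (blue) libraries, on an axis that is logarithmic above 1 and linear from 0 to 1. Apart from miR166b, mature rows lie between 1371 and 2768 TPM, in which reads with several positions were shared out between loci. Star rows, with miR166b, extend from 0 to 11570 TPM.

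miR164, which targets NAC transcription factors, also had loci with close mature and unlike star rows. The mature (5p) rows of its 2 loci differed by at most 1.07-fold within a library. As reads with several positions were shared out between loci, this closeness cannot be read as equal output of miR164a and miR164b. Their star (3p) rows did not match: miR164b had star shares of 22.0%, 14.8% and 18.3% in *hws-1*, against 15.2%, 18.3% and 27.5% in WT, while miR164a had at most 4.98% in any library and was at 0 in *hws-1* replicate 2. The family star share was 12.9% ± 2.1 in *hws-1* and 13.0% ± 3.5 in WT (SD, n = 3 each). Both strands had higher means in *hws-1*, at 1.998 times WT for mature and 1.85 times for star TPM, and the difference in the log2 ratio was 0.00 (standard error 0.33, adjusted p = 0.99 from limma). These sums leave out miR164a in *hws-1* replicate 2, where it is called Probable and has 1326 TPM of mature strand. With any evidence word, the star share of that library was 8.06% instead of 14.8%, the mean mature TPM in *hws-1* was 2.61 times that in WT, and the log2 difference was -0.32 (standard error 0.34).

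In miR396, which targets growth-regulating factors (GRFs), the strands were read differently at different loci. At miR396b and miR396c the mature strand was 5p in all 6 libraries. At miR396a and miR396d, which have nearly identical rows, it was 3p in all *hws-1* libraries and in WT replicate 3, but 5p in WT replicates 1 and 2. In Arabidopsis, the GRF-targeting strand of miR396 is the 5p one.

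Read by arm, miR396a had the 3p strand above the 5p strand in every library. The 3p row had 4778, 6578 and 6611 TPM in *hws-1*, against 2525, 2669 and 4652 TPM in WT. The 5p row had 1624, 3092 and 1797 TPM in *hws-1*, against 2060, 2446 and 1940 TPM in WT. The 3p share was thus 74.6%, 68.0% and 78.6% in *hws-1*, against 55.1%, 52.2% and 70.6% in WT, and the lines overlapped in the share, though not in the 3p row itself.

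The arm listed as mature therefore set the direction of the family result. By the words, the star share of miR396 was 21.5%, 27.1% and 21.0% in *hws-1*, against 41.0%, 43.4% and 25.4% in WT, a log2 difference of -0.92 in the ratio (standard error 0.38, adjusted p = 0.21 from limma). By arms, with 3p set against 5p in every library, the difference was 0.71 (standard error 0.35, adjusted p = 0.24 from limma). Neither passed, and the sign turned with the naming of the strand.

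At miR396c, whose mature strand was 5p throughout, the star (3p) share was 9.40%, 7.498% and 11.4% in *hws-1*, against 4.82%, 6.65% and 6.22% in WT. All 3 *hws-1* libraries were above all 3 WT libraries at this locus, which was singled out after its values were seen and was not tested. The study also lists this star row as accumulated in *hws-1*, from the same libraries, so this is no independent support. Reads with several positions were shared out, and miR396b and miR396c had equal 5p rows, 2212 TPM, in WT replicate 3. The share therefore cannot be read as the output of this locus alone. miR396b did not show this, at 13.1%, 17.5% and 26.7% in *hws-1*, against 22.5%, 23.3% and 22.6% in WT.

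**Figure D3:**
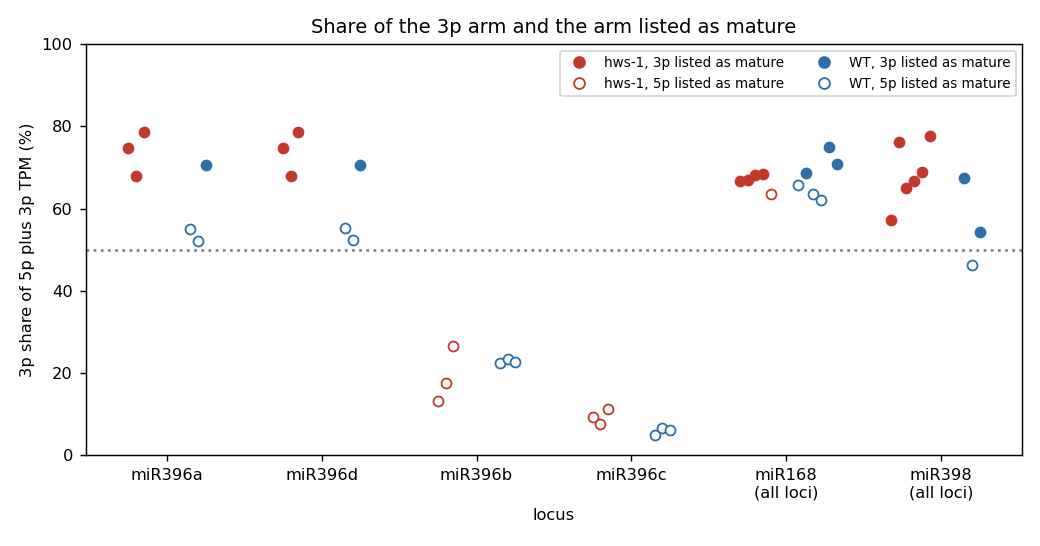
Share of the 3p arm (% of 5p plus 3p TPM) at the miR396 loci and at all miR168 and miR398 loci, for *hws-1* (red) and WT (blue) libraries. Filled points are listings in which 3p is the mature strand and open points those in which 5p is. miR396a and miR396d are open only in WT replicates 1 and 2, and miR168 lies between 62.1% and 75.1% whichever arm is named mature.

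miR168 shows the same point in the other direction, because its arms were stable while its words were not. The 3p arm held 66.6%, 67.6% and 66.0% of the family's TPM in *hws-1*, against 67.3%, 62.9% and 73.1% in WT, although the *AGO1*-targeting strand of Arabidopsis miR168 is 5p. The mature word stood on 3p in 7 of 11 listings and on 5p in 4. The star share by words therefore scattered from 26.9% to 62.9%, and the log2 difference between the lines was -0.48 by words (standard error 0.56). By arms it was 0.08 (standard error 0.32), with 5p set against 3p. In every comparison by arms, the arm more often listed as star in a family was set against the other. That arm is 5p in miR168 and miR398 but 3p in miR396, miR171 and miR1919.

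In miR398, which targets copper/zinc superoxide dismutases, both strands were higher in *hws-1*. Mature TPM was 1415, 2817 and 1334 in *hws-1*, against 250.4, 213 and 229 in WT. Star TPM was 749, 1471 and 490.3 in *hws-1*, against 121, 184 and 193 in WT. The lines did not overlap in either strand, but each *hws-1* library lists 2 Known miR398 loci and each WT library 1. Single *hws-1* loci had 636 to 1675 TPM of mature and 201 to 901 TPM of star strand, each above every WT value of that strand.

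The star share of miR398 was 34.6%, 34.3% and 26.9% in *hws-1*, against 32.6%, 46.3% and 45.8% in WT, with overlap between the lines (log2 difference -0.60, standard error 0.34, adjusted p = 0.32 from limma). The mature word stood on 5p in WT replicate 2 and on 3p in every other listing. By arms, with 5p set against 3p, the log2 difference was -0.74 (standard error 0.39, adjusted p = 0.24 from limma). miR408, the other copper-responsive family, likewise had higher means of both strands in *hws-1* (2.17 times WT for mature and 2.33 times for star TPM) and a star share of 14.3% ± 2.6 in *hws-1* and 13.8% ± 4.9 in WT (SD, n = 3 each).

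A difference between the lines in the ratio of star to mature passed in 1 of the 19 families, miR393, where the ratio was lower in *hws-1*. That call rested on 1.5 to 2.5 star reads in each *hws-1* library, and it was lost in several alternatives given below. The test was limma on log2((star + 1)/(mature + 1)) with Benjamini-Hochberg adjustment over the 19 families, of which 5.26% passed at 0.05, and 0 were higher in *hws-1*. At an unadjusted p under 0.05 there were 4 families, 2 higher (miR394 and miR5300) and 2 lower (miR393 and miR396) in *hws-1*. In 5 families, or 26.3%, the lines had no overlap in the ratio. These are miR393, lower in *hws-1*, and miR394, miR5300, miR6027 and miR1919, higher in *hws-1*. The study lists the star strands of miR394, miR5300 and miR6027 as accumulated in *hws-1* from these same libraries. Their higher ratios are therefore no independent observations. For a single family, the smallest p that an exact permutation test of 3 against 3 libraries can reach is 0.10. Every family that met the rule was tested, so these shares are also the background for any member.

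**Figure D4:**
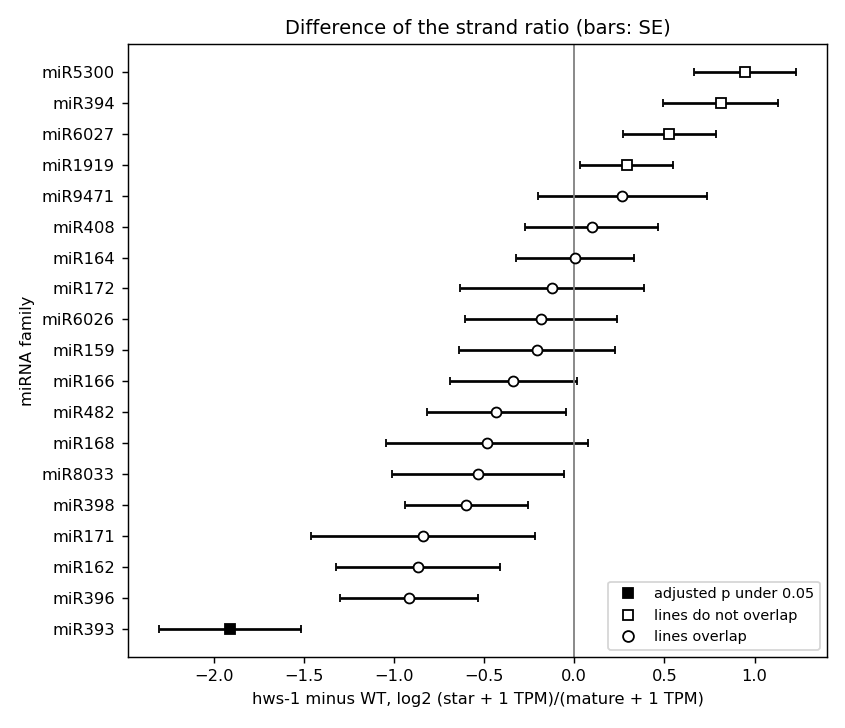
Difference between *hws-1* and WT in log2((star + 1 TPM)/(mature + 1 TPM)) for the 19 families, with standard errors from limma. Squares mark families whose lines do not overlap, and the filled square, miR393 at -1.91, is the one with an adjusted p under 0.05.

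miR393, which targets the auxin receptors of the TIR1/AFB group, had less star strand in *hws-1*, while its mature strand overlapped between the lines. The mature (3p) row had 794, 986 and 1664 TPM in *hws-1*, against 944, 741 and 1211 TPM in WT, with overlap. The star (5p) row had 13.9, 9.54 and 13.1 TPM in *hws-1*, against 38.0, 45.4 and 41.1 TPM in WT, with no overlap. The 5p strand is the TIR1-targeting one in Arabidopsis.

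The star share of miR393 was 1.72%, 0.96% and 0.78% in *hws-1*, against 3.86%, 5.77% and 3.28% in WT. The log2 difference in the ratio was -1.91 (standard error 0.39, adjusted p = 0.028 from limma), with all 3 *hws-1* libraries below all 3 WT libraries (two-sided exact permutation test, p = 0.10). The star row rested on 2.5, 1.5 and 1.5 reads in *hws-1*, against 11.9, 11.7 and 11.5 reads in WT. The call was lost with a pseudocount of 10 TPM (adjusted p = 0.11) or of 1 read (0.074), and without *hws-1* replicate 2 (0.20), *hws-1* replicate 3 (0.10) or WT replicate 2 (0.10), while the difference stayed below 0 in all 18 alternatives.

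miR394, whose target in Arabidopsis is the F-box gene *LCR*, stood on the other side with as few reads. Its mature (5p) row had 380.2, 851 and 710 TPM in *hws-1*, against 838, 641 and 760 TPM in WT. Its star (3p) row had 11.1, 25.4 and 35.0 TPM in *hws-1*, against 15.9, 15.5 and 12.5 TPM in WT, which is 2 to 4 reads in *hws-1* and 3.5 to 5 in WT. The lines overlapped in each strand but not in the share, at 2.84%, 2.90% and 4.70% in *hws-1*, against 1.87%, 2.36% and 1.62% in WT. The log2 difference of 0.81 (standard error 0.32) did not pass (adjusted p = 0.21 from limma).

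**Figure D5:**
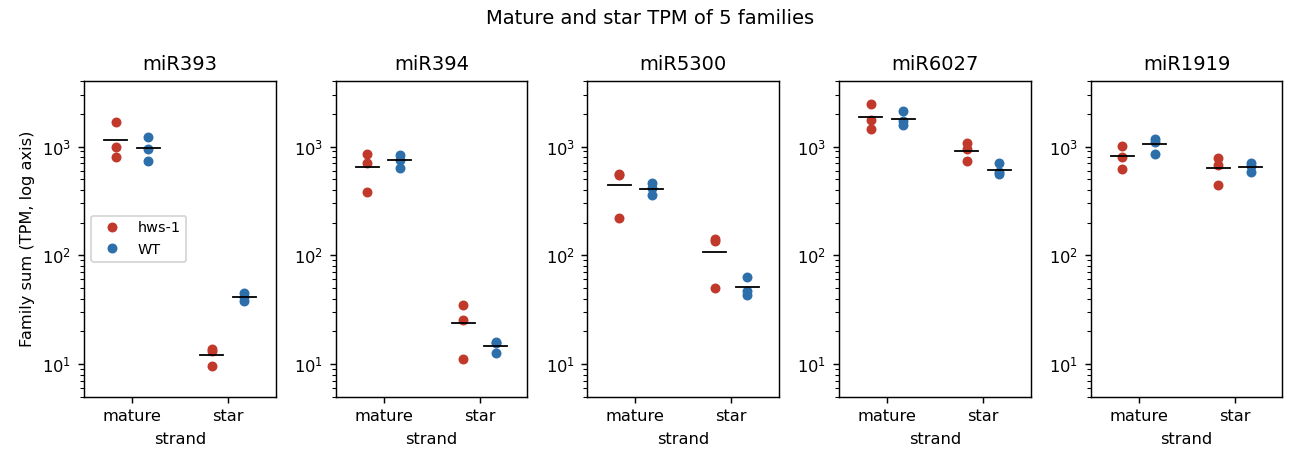
Mature and star TPM (log axis) of the 5 families whose strand ratios did not overlap between *hws-1* (red) and WT (blue); black lines are means of 3 libraries. In miR393 the star points of *hws-1* (9.54 to 13.9 TPM) lie below those of WT (38.0 to 45.4 TPM) while mature points overlap.

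Of the 3 families that target disease resistance genes of the NLR type, none passed, and miR5300 and miR6027 had positive and miR482 a negative log2 difference. The mature (5p) row of miR5300 had 222, 553 and 552 TPM in *hws-1*, against 411, 462 and 355 TPM in WT. Its star (3p) row had 49.95, 139.9 and 134.3 TPM in *hws-1*, against 63.8, 46.5 and 42.9 TPM in WT. Star shares were 18.4%, 20.2% and 19.6% in *hws-1*, which is a narrow range, against 13.4%, 9.16% and 10.8% in WT.

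The log2 difference in the ratio of miR5300 was 0.95 (standard error 0.28), which did not pass over the 19 families (adjusted p = 0.10 from limma). It passed in 1 of the 18 alternatives, without WT replicate 1 (1.11, adjusted p = 0.047). Its star row held at least 9 reads in every library.

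The star row of miR6027 held 108 to 196.5 reads in a library. Mature (5p) TPM was 1451, 2437 and 1760 in *hws-1*, against 1576, 1713 and 2105 in WT. Star (3p) TPM was 738, 1068 and 946 in *hws-1*, against 559, 578 and 702 in WT. The lines overlapped in the mature but not in the star strand. Star is the word of the lists here, and which strand of miR6027 acts on targets was not checked. Star shares were 33.7%, 30.5% and 35.0% in *hws-1*, against 26.2%, 25.2% and 25.01% in WT, a log2 difference of 0.53 (standard error 0.26, adjusted p = 0.29 from limma).

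miR482 did not follow them. Its Known loci had star shares of 3.26%, 2.85% and 6.18% in *hws-1*, against 6.39%, 5.02% and 4.25% in WT (log2 difference -0.43, standard error 0.38). This sum leaves out miR482b in *hws-1* replicates 1 and 3 and in WT replicate 1, where it is called Probable. With loci of any evidence word, the shares were 2.53%, 2.84% and 3.84% in *hws-1*, against 6.29%, 5.02% and 4.25% in WT, which do not overlap (log2 difference -0.79, standard error 0.29, adjusted p = 0.15 from limma). At miR482b alone, the mature (3p) row was 17652, 30549 and 22527 TPM in *hws-1*, against 11214, 11952 and 13646 TPM in WT, and the star (5p) row 416, 898 and 727 TPM in *hws-1*, against 743, 666 and 600 TPM in WT. The lower star share there thus went with a higher mature row, and letters follow the order of each list, so that a locus of this name need not be the same in all lists.

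The sign for miR1919 depended on which arm was called mature. This was 5p at miR1919a, miR1919b and miR1919d in 5 libraries and 3p in *hws-1* replicate 3. By words its star share was 41.8%, 43.2% and 45.5% in *hws-1*, against 36.4%, 40.6% and 38.9% in WT (log2 difference 0.29, standard error 0.26, adjusted p = 0.51 from limma). All miR1919 loci in a library have nearly the same 3p value, from 148 to 269 TPM in *hws-1* and from 195 to 234 TPM in WT, but at miR1919c the 5p row is nearly empty, at 0 to 6.38 TPM. miR1919c is Known in WT replicates 1 and 3 and Probable elsewhere. Read by arms over the same Known loci, the log2 difference was -0.01 (standard error 0.35). It was 1.04 with identical rows counted once (standard error 0.59, adjusted p = 0.36 from limma). As a mean over loci it was 0.90 (standard error 0.39, adjusted p = 0.24 from limma). With any evidence word, the star shares were 36.7%, 37.8% and 38.5% in *hws-1*, against 36.4%, 35.8% and 38.9% in WT, which overlap (log2 difference 0.04, standard error 0.22).

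miR171, which targets GRAS transcription factors of the HAM group, also depended on 1 listing. WT replicate 1 has a further Known locus, miR171c, with the mature strand on 3p and 181 TPM. Which strand of miR171 acts on its targets was not checked. At miR171b, which all libraries list as Known, the star (3p) share was 9.84%, 5.23% and 11.3% in *hws-1*, against 6.504%, 21.2% and 23.3% in WT. The star row of the family held 0.80 to 1.80 reads in *hws-1* and 3.80 to 5.10 in WT. The log2 difference of the family was -0.84 by words (standard error 0.62, adjusted p = 0.51 from limma). By arms, where the 3p strand of miR171c is added to the 3p side, it was -2.51 (standard error 0.72, adjusted p = 0.061 from limma). With any evidence word, which adds miR171a, star shares were 5.17%, 2.68% and 6.02% in *hws-1*, against 4.73%, 11.8% and 13.2% in WT. The log2 difference was then -1.05 (standard error 0.50). Without WT replicate 1, miR171 was among the 3 families that passed.

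For the remaining families the lines overlapped and no difference passed. miR162 was lower in *hws-1* by the estimate, with a log2 difference of -0.87 (standard error 0.45, adjusted p = 0.30 from limma), and its star strand held 9 to 17 reads in *hws-1* and 31 to 38 in WT. miR8033 stood at -0.53 (standard error 0.48), miR166 at -0.34 (0.35), miR159 at -0.21 (0.43), miR6026, a regulator of *DCL2* in tomato, at -0.19 (0.42) and miR172 at -0.12 (0.51). miR408 stood at 0.10 (0.37) and miR9471 at 0.27 (0.47). A difference that did not pass is not shown to be absent.

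Grouped by their targets, the families did not move one way. Of the 6 families that target transcription factors, 1 had a positive and 5 a negative log2 difference, with a median of -0.27, and none passed. By arms, miR396 was positive and the split was 2 positive and 4 negative (median -0.17). With any evidence word, miR164 was negative (-0.32) and miR172 positive (0.19). Both families of the miRNA pathway, miR162 and miR168, were negative by words, but miR168 was positive by arms. Of the 3 NLR-targeting families, 2 were positive and 1 negative. Over all 19 families the median was -0.21, with 7 positive and 12 negative. By arms, where miR168, miR396 and miR1919 change sign, it was -0.12, with 8 positive and 11 negative.

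Summed over the 19 families, the star share of a library did not differ beyond the spread between libraries. It was 17.1%, 13.3% and 21.6% in *hws-1*, against 19.7%, 19.3% and 20.3% in WT (two-sided exact permutation test, p = 0.40). The *hws-1* libraries scattered more, at 17.3% ± 4.2, than those of WT, at 19.8% ± 0.5 (SD, n = 3 each). miR166 alone supplied 40.6% to 64.0% of the star TPM in *hws-1* and 47.6% to 65.6% in WT, and without it the star share was 9.87% to 11.6% in *hws-1* and 9.98% to 13.5% in WT. The median family, in which each family counts alike, had a log2(star/mature) of -2.62, -2.52 and -2.30 in *hws-1*, against -2.79, -2.06 and -2.31 in WT (two-sided exact permutation test, p = 0.80).

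Families just outside the set were Known in 5 of the 6 libraries. miR156, which targets SPL transcription factors, had star shares from 18.5% to 61.5% there, miR391 from 12.3% to 35.3%, miR6024 from 29.7% to 48.5% and miR9470 from 0.61% to 1.94%. A further 3 families were Known in 4 libraries, 3 in 2 and 4 in 1.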

How the data were processed

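Small RNA from 3 *hws-1* and 3 WT samples was processed by the authors with sRNAminer (One Step pipeline, default settings). Per the file headers, reads were trimmed, cleared of rRNA and aligned with bowtie, and versions and genome build are not given in the sources used here. The deposited values are RPM, which the authors call TPM. Lines and replicate numbers come from the labels.

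Mature and star rows were paired by locus name and evidence word within a library and summed by family. limma 3.58.1 (R 4.3.3) compared log2((star + 1)/(mature + 1)) with line as the only term, and single values were compared by two-sided exact permutation tests in Python 3.11.15. The step of 1 read is the largest of which at least 30% of values are whole multiples. As most values are not, no count model was fitted. The samples are given as biological replicates, without saying whether segments came from separate plants. The fit was tested on simulated data. Alternatives were other pseudocounts, a filter of 10 TPM on star means, any evidence word, identical rows counted once, arms in place of words, means over loci, leaving out the most abundant family from the summed values, a trend, a replicate block and leaving out each library. Every family is accounted for. Named with values were families that passed, the 5 largest differences without overlap, the 4 highest and 4 lowest mean star shares, families with star above mature, the 4 with most mature TPM, miR393 and the families with a star strand among the miRNAs the study lists. Others were named after their values were seen. The families, lists and tests were chosen with earlier results of these data known, among them a lower miR393-5p row in *hws-1*, which is the star row tested here and so no independent support.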

Additional observations from a re-analysis of the deposited data

How the results depend on the processing

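With the main settings 1 family, miR393, passed. The number was 0 with a pseudocount of 10 TPM and with a pseudocount of 1 read (chosen after seeing the data), and it ranged from 0 to 3 when each library was left out in turn, with 0 without *hws-1* replicate 2, *hws-1* replicate 3 or WT replicate 2 and 3 without WT replicate 1 (miR171, miR393 and miR5300). The filter of 10 TPM on star means removed no family.

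Samples with the same replicate number did not deviate together more than others (correlations of 0.03, -0.04 and 0.10, against -0.21 to 0.26 for other pairs). With so few libraries, this cannot show whether they share more than a number. With a replicate block 1 family passed. With a replicate block and arms in place of words, also chosen after seeing the data, 2 passed (miR171 and miR393), and all families then had the same standard error, 0.40. For the summed star share and the median ratio, the block gave exact permutation p = 0.50 and p = 1.

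With arms in place of words, the difference reversed for miR1919 (-0.013, with or without the block) and for the summed star share (2.13 percentage points, against -2.42 by words). The difference of the median log2 ratio, -0.10, turned to 0.084 with any evidence word and ranged from -0.30 to 0.066 when each library was left out, the positive one being without WT replicate 2. That of the summed share ranged from -4.56 to -0.41 percentage points. miR394, miR5300 and miR6027 kept their direction in all 18 alternatives. Depth limits miR171, miR393 and miR394, whose star sums fall under 5 reads in at least 1 library.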

Other observations

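miR6022 was listed in *hws-1* replicate 2 alone, with a mature row of 11134 TPM and a star row of 6.36 TPM, which is 1 read, so that its star share of 0.057% was the lowest of all Known families. A family that a list leaves out need not be without reads in that library, so its absence elsewhere cannot be read as a value of 0.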
